A study of Mus musculus with 17 samples.

Results

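The transcripts of 10 neuropeptide precursor genes were followed in mouse cortex: Cort, Npy, Cck, Tac1, Tac2, Penk, Pdyn, Crh, Nts and Adcyap1. They were taken by gene symbol from a table of 55453 symbols, and all 10 were found there. RNA from bulk cortex was sequenced in 17 male C57BL/6J mice to ask how loss or substitution of hnRNPH2, an X-linked RNA-binding protein, alters gene expression. Hemizygous Hnrnph2 KO mice (n = 3; a frameshift line obtained while the knockin lines were made) and hemizygous R206W knockin mice (n = 3) were sampled at 8 weeks, each with wild-type littermates called KO Control (n = 3) and R206W Control (n = 3). Hemizygous P209L knockin mice (n = 3) and their wild-type littermates, P209L Control (2 mice analysed here), were sampled at 3 weeks. The alleles are carried in the germline and are not limited to the cortex, and line and age cannot be told apart for the P209L line.

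Neuropeptides are made as precursor proteins, cut by convertases in dense-core granules and released to act on G protein-coupled receptors, usually more slowly than the fast transmitters they accompany. In the cortex most of them mark inhibitory interneurons: Npy and Cort are found with somatostatin, and Cck, Crh, Tac1, Tac2, Penk and Pdyn each label further sets of cells, with Cck and Adcyap1 also made in excitatory neurons. Several of these genes are induced by neuronal activity and change as circuits mature.

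Cort and the tachykinin genes are described at most length below, and their peptide-coding stretches are shown so that the relation between family members can be seen. Cort encodes cortistatin, which binds the receptors of somatostatin. Its ring-coding stretch is set beside that of Sst, with identical bases in capitals (GENCODE M21 transcripts, GRCm38, both on the minus strand):
Cort, chr4:149125270-149125305: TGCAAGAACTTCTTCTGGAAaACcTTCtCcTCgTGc
Sst, chr16:23889732-23889767: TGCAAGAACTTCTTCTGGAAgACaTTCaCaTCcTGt
Of these 36 bases 30 were identical (83.3%), and in the next best in-frame window of Cort 16 were. Each stretch lies within a single coding exon.

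Tac1 encodes substance P and neurokinin A, and Tac2 encodes neurokinin B. Their peptides share a carboxy-terminal core, whose codons are in capitals here after the codons that precede them (plus strand, same annotation):
Tac1, substance P, chr6:7556735-7556764: cccaagcctcagcagTTCTTTGGATTAATG
Tac1, neurokinin A, chr6:7559101-7559130: cataaaacagattccTTTGTTGGACTAATG
Tac2, neurokinin B, chr10:127729116-127729145: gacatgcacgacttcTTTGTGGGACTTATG
Tac1 held 2 such cores in its coding sequence and Tac2 held 1. Among the opioid precursors, the coding sequence held 7 opioid cores in Penk and 3 in Pdyn. A value for Tac1, Penk or Pdyn is therefore the level of a precursor transcript that yields several peptides.

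Promoters from RefSeq (GRCm38.p6, from 250 bases before the start to 50 after it) were matched for 8 of the 10 genes. The letters TGACG, which form part of the cAMP response element, were searched on both strands. They occurred in 5 of these 8 (Cort, Tac1, Cck, Nts and Adcyap1) and in 20.8% of all 32851 promoter windows. A gene was counted when any of its windows held the letters, and Adcyap1 held them in separate windows. The counts by gene and the shares by window are therefore unlike units here and below. The full element, TGACGTCA, which contains those letters, was in 0 of the 8 and in 1.79% of all windows, and the Sst window held it. The AP-1 letters TGANTCA were in 1 of the 8 (7.81% of all windows), and TATAAA in 1 (13.6%). The 30 bases around the match nearest the start are given for Cort, Tac1 and Sst, because Cort and Tac1 had the largest differences on the log2(TPM + 1) scale between the P209L line and the 8-week mutants, with the matched letters in capitals:
Cort, chr4:149126764-149126793, minus strand: ctccggcttgtgCGTCAccgcgtgagtgtg
Tac1, chr6:7555006-7555035, plus strand: gctctacaggctCGTCAcgcctgagataaa
Sst, chr16:23890872-23890901, minus strand: ctccttggcTGACGTCAgagagagagttta
These matches describe the letters in the window and were not tested as binding sites.

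Levels are given in TPM, the share of each transcript among 1000000 after correction for length, and tests were run on log2(TPM + 1) with limma. Hnrnph2, read first as a check of the labels, was 23.49, 21.29 and 24.39 TPM in the KO mice against 80.47, 144.72 and 139.69 TPM in KO Control, a difference in mean log2(TPM + 1) of -2.30 ± 0.17 (SE; adjusted p = 8.64e-06, limma). The mouse KO Control 1 stood apart. It had 20.1% of its TPM in mitochondrial genes against 10.7 to 15.4% in the other mice, the smallest size factor (0.805), and the lowest value of all 17 mice for Cck, Npy, Tac2, Pdyn and Penk. P209L Control 2 also stood apart, with choroid plexus markers summing to 1782 TPM (Ttr at 1739.95 TPM) against 4.63 to 28.97 TPM in the other mice, and oligodendrocyte markers at 6366 TPM against 2576 to 4269. Blood markers were at 1905 to 4884 TPM at 3 weeks and 560.1 to 1323 TPM at 8 weeks. Slc17a7, the vesicular glutamate transporter of cortical excitatory neurons, was at 495.43 TPM or more in every mouse, while 9 of 10 hypothalamic markers averaged under 1 TPM in every group. The remaining one, Pomc, was at 2.6 to 4.33 TPM at 3 weeks and 0.96 to 2.27 TPM at 8 weeks. The P209L line differed from the 8-week lines by 1.18 ± 0.16 in controls (adjusted p = 9.27e-05, limma) and 0.67 ± 0.135 in mutants (adjusted p = 0.00108). Hippocampal markers summed to 199.7 TPM in P209L 2 against 96 to 147.3 TPM in the other mice, and whether the dissection differed was not tested. Of the 6 tested, 2 were higher and 2 lower in P209L than in the 8-week mutants, against 13.9% and 32.1% of all genes. The part of these markers in the results was not tested. Because the tissue was bulk, fewer cells of a type and less RNA per cell cannot be told apart.

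Cck, whose peptide cholecystokinin modulates inhibition, and Npy, an inhibitory peptide of interneurons, made up most of the precursor RNA. Cck was the most abundant of the 10 in every group, with 686 ± 113.6 TPM (SD) over the 17 mice, or 64.5% of their sum. Npy followed with 220.9 ± 56.38 TPM and 20.8%. In every group the Cck values lay above all Npy values, and the Npy values above those of the next gene.

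The other 8 genes shared the rest. Penk, the enkephalin precursor, averaged 48.83 ± 11.44 TPM, and Cort 28.03 ± 17.71 TPM. Adcyap1, which encodes the peptide PACAP, averaged 20.99 ± 4.267 TPM, Tac1 20.41 ± 9.134 TPM, Pdyn, the dynorphin precursor, 16.1 ± 3.743 TPM and Tac2 14.24 ± 3.72 TPM. From Penk down to Nts each gene's range over the 17 mice overlapped that of the next gene in this order. Crh, the corticotropin-releasing hormone gene of the stress axis, averaged 6.627 ± 1.768 TPM. Nts, the neurotensin precursor, was lowest with 1.524 ± 1.304 TPM, so it lies near the filter of 1 TPM and the log2(TPM + 1) scale understates its differences. All 10 genes passed that filter on the mean over all mice, as did 16265 of all symbols.

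The order of the levels changed with the P209L line. In KO Control, R206W Control and R206W, Cort ranked 5 or 6 of the 10, with a range that overlapped those of its neighbours, and in KO and P209L Control it ranked 4. In P209L mice it ranked 3, at 59.62 ± 22.98 TPM, or 5.72% of the precursor sum, and its range overlapped that of Penk. The summed TPM of the 10 genes was 958.6 ± 260.7 in KO Control, 1069 ± 182.6 in KO, 1099 ± 32.25 in R206W Control, 1189 ± 76.17 in R206W, 1004 ± 50.3 in P209L Control and 1042 ± 168 in P209L. In each line the ranges of mutants and littermate controls overlapped.

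**Figure D1:**
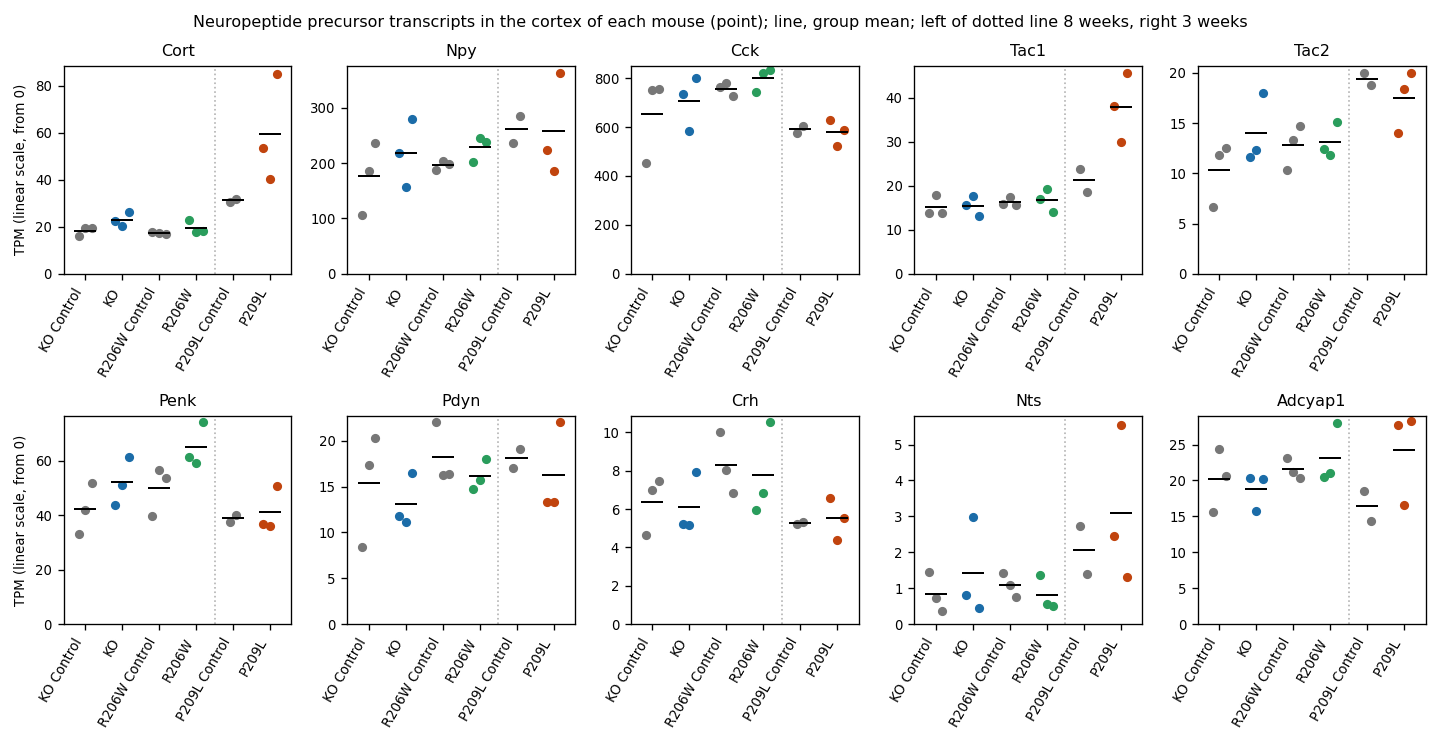
TPM of each precursor gene (linear axis from 0) in each of the 17 mice, by group; points are mice, lines are group means, and the dotted line separates 8 weeks from 3 weeks. The 3 P209L mice were at 40.2 to 84.99 TPM for Cort and 29.94 to 45.6 TPM for Tac1, above every other mouse for both genes.

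The first question was whether a mutation in Hnrnph2 changed the precursors against littermates of the same age. Cort and Tac1 were highest in the P209L mice, where their means were 191% and 179% of those of P209L Control, but neither passed the adjusted threshold. None of the 10 genes passed an adjusted p of 0.05 (limma, Benjamini-Hochberg over all 16265 genes) in KO, R206W or P209L. The share of all genes that passed was 0.00615% in KO, 0.0369% in R206W and 0.0984% in P209L. At an unadjusted p under 0.05 the counts were 0 of 10 in KO (4.08% of all genes), 0 of 10 in R206W (2.19%) and 3 of 10 in P209L (7.46%). Oligodendrocyte markers moved beside the P209L values: their sum was 4269 and 6366 TPM in P209L Control and 3122, 3680 and 2576 TPM in P209L, so both controls lay above all mutants. All 10 of these markers had an unadjusted p under 0.05, with a median difference of -0.84, 0 passed the adjusted threshold (5 passed without KO Control 1), and their part in the Cort and Tac1 values was not tested.

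Cort was measured at 30.46 and 31.98 TPM in P209L Control and at 53.68, 40.2 and 84.99 TPM in P209L. All mutants were above both controls, a separation in either direction that 24.9% of all genes showed, and the P209L mice were spread more widely than any other group. The difference in mean log2(TPM + 1) was 0.85 ± 0.22 (SE; 95% interval 0.38 to 1.31; adjusted p = 0.229, limma). The adjusted p ran from 0.0511 to 1 over the alternative settings, and the difference stayed between 0.56 and 1.09. Without P209L Control 2, the mouse with choroid plexus markers, the difference was 0.88 (adjusted p = 1, limma; the remaining control was assumed to vary like the other groups).

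Tac1 was at 23.76 and 18.64 TPM in P209L Control and at 38.04, 29.94 and 45.6 TPM in P209L. Here too every mutant lay above both controls, so 2 of the 10 genes did not overlap in this comparison, no larger a share than over all genes. The difference was 0.80 ± 0.19 on the log2(TPM + 1) scale (95% interval 0.40 to 1.19; adjusted p = 0.155, limma), with adjusted p from 0.0854 to 1 over the alternatives. Without P209L Control 2 it was 0.63, and without P209L Control 1 it was 0.96.

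Adcyap1 was the remaining gene with an unadjusted p under 0.05 in P209L. Its values were 18.58 and 14.35 TPM in P209L Control and 27.72, 16.55 and 28.3 TPM in P209L, so 1 mutant lay between the controls. The difference was 0.50 ± 0.23 (SE; adjusted p = 0.641, limma).

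The related precursor Sst and the interneuron peptide gene Vip had small differences in P209L. Sst was at 352.45 and 399.45 TPM in P209L Control and 359.52, 398 and 441.98 TPM in P209L, a difference of 0.09 ± 0.20 (adjusted p = 0.982, limma). Vip differed by 0.02 ± 0.15 in the same comparison (adjusted p = 0.998, limma).

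In KO mice the differences of the 10 genes ran from -0.15 (Pdyn) to 0.42 (Tac2), with a median of 0.21 against 0.06 over all genes tested. Without KO Control 1 the range was -0.50 (Pdyn) to 0.51 (Nts) and the median -0.0088, against -0.06 over all genes. Tac2 was at 6.66, 11.86 and 12.54 TPM in KO Control and 11.61, 12.35 and 18.04 TPM in KO, a difference of 0.42 ± 0.21 (95% interval -0.03 to 0.88; adjusted p = 0.999, limma). The lowest of these values was that of KO Control 1, without which the difference was 0.16, and the groups overlapped. Cort was the only one of the 10 whose KO groups did not overlap, a state found for 6.25% of all genes. It was at 16.19, 19.47 and 19.39 TPM in KO Control and 22.58, 20.51 and 26.15 TPM in KO, with a difference of 0.31 ± 0.20 (adjusted p = 0.999, limma).

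In R206W mice the range was -0.23 (Nts) to 0.38 (Penk), and the median was 0.06 against 0.01 over all genes. Penk was at 39.84, 56.79 and 53.51 TPM in R206W Control and at 61.41, 59.22 and 74.46 TPM in R206W. All R206W mice were above their controls, as was true in either direction for 16.2% of all genes. The difference was 0.38 ± 0.19 (95% interval -0.01 to 0.77; adjusted p = 1, limma). Penk overlaps A830012C17Rik on the opposite strand, and that gene was at 0 to 0.12 TPM in the 17 mice. Vip, which is not among the 10, was at 75.2% of its control mean in R206W (-0.40 ± 0.14, adjusted p = 1, limma), with groups that did not overlap. It passed under sample weights (-0.41, adjusted p = 0.0383, limma).

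The remaining precursors gave wide intervals against their littermates. For Cck, the most abundant, they were -0.21 to 0.49 in KO, -0.28 to 0.43 in R206W and -0.43 to 0.36 in P209L. Changes within these limits cannot be left out. The limits do not give the smallest change that the adjusted test could call, because Cort and Tac1 in P209L had intervals without 0 and did not pass. The Npy interval reached from -0.72 to 0.58 in P209L. In Nts the interval was -1.06 to 0.60 in R206W and -0.60 to 1.25 in P209L, the widest of the 10. Crh differed by -0.05 in KO, -0.11 in R206W and 0.04 in P209L, and Pdyn by -0.15, -0.16 and -0.19. Leaving out KO Control 1 did not bring any of the 10 past the threshold in KO. With sample weights, which gave that mouse the smallest weight of all, Pdyn passed in KO (-0.53, adjusted p = 0.0268, limma).

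**Figure D2:**
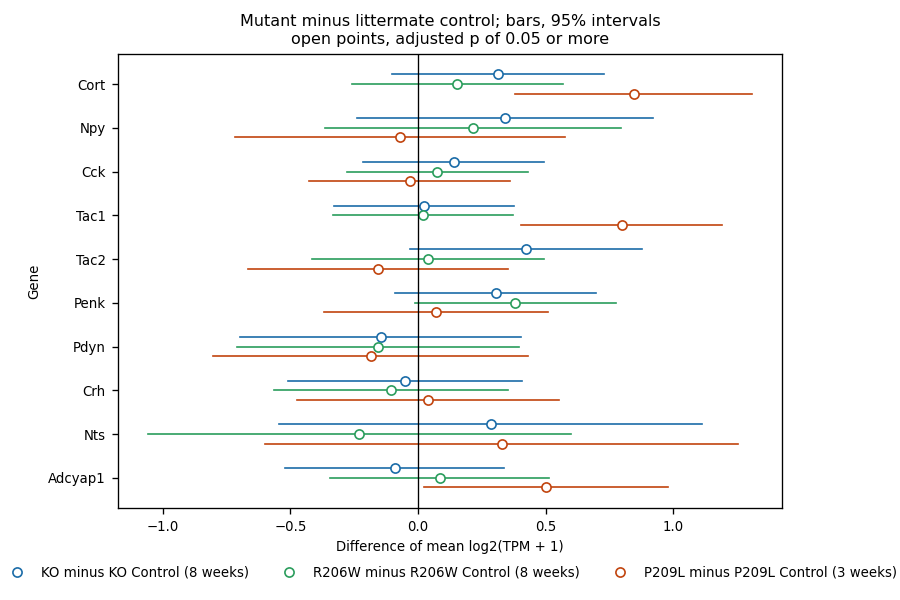
Difference in mean log2(TPM + 1) between each mutant and its littermate controls for the 10 genes, with 95% intervals from limma; open points did not pass an adjusted p of 0.05. The intervals of Cort, Tac1 and Adcyap1 in P209L (lower ends 0.38, 0.40 and 0.02) are the ones that leave out 0, and no point is filled.

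The second question was whether the mutant effects differed between lines. The P209L effect on Tac1 exceeded the KO effect by 0.77 ± 0.25 (95% interval 0.25 to 1.30; adjusted p = 0.433, limma) and the R206W effect by 0.78 ± 0.25 (adjusted p = 1, limma). For Cort the corresponding differences were 0.53 ± 0.29 (adjusted p = 0.659, limma) and 0.69 ± 0.29 (adjusted p = 1). Of the 10 genes, 0 passed the adjusted threshold in P209L against KO (0.0492% of all genes), in P209L against R206W (0%) or in KO against R206W (0.0307%). The unadjusted counts were 1 of 10 (7.98% of all genes), 2 of 10 (3.98%) and 0 of 10 (2.29%). The wild-type mice of the 8-week lines were compared in the same way, and between R206W Control and KO Control 0 of the 10 genes passed (0% of all genes), with 0 at an unadjusted p under 0.05 (3.12%). In that comparison 9 of the 10 differences were above 0, as were 83.9% of all genes, whose median was 0.13.

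The third comparison set the P209L line at 3 weeks against the 8-week lines, first in wild-type mice. Cort and Tac2 were higher in P209L Control than in the 8-week controls, at 175% and 168% of their means. They were the 2 of the 10 genes that passed the adjusted threshold, where 36.1% of all genes passed (11.3% higher and 24.8% lower). The median difference of the 10 was 0.28 and that of all genes was -0.12, a shift that scaling by size factors reduced to -0.02. Of all genes called, 31.3% were higher, against 45.5% under size factors and 50.6% under quantile normalization. The calls among the 10 rest on only 2 controls at 3 weeks. With a single control left, the median difference of the 10 was 0.23 without P209L Control 1 and 0.23 without P209L Control 2. Without KO Control 1, 2 of the 10 were higher and 1 was lower. Over all genes, the called counts then rose from 1837 to 2092 higher and from 4039 to 6089 lower.

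Cort was at 16.19 to 19.47 TPM in the 6 control mice at 8 weeks, with a mean of 17.87 ± 1.329 TPM, and at 30.46 and 31.98 TPM in the controls at 3 weeks. The groups did not overlap, and the difference was 0.77 ± 0.20 (adjusted p = 0.00673, limma). It passed in 25 of 26 alternatives. Without P209L Control 2 it was 0.74 with an adjusted p of 0.0708 (limma), and without P209L Control 1 it was 0.81 (adjusted p = 0.0493).

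Tac2 was at 6.66 to 14.71 TPM in the 8-week controls and at 20.03 and 18.78 TPM in P209L Control. All 3-week values were above the 8-week values (0.73 ± 0.21, adjusted p = 0.015, limma). Without P209L Control 1 the adjusted p was 0.114, and without P209L Control 2 it was 0.0808. Tac2 was at 14.04, 18.42 and 19.98 TPM in the P209L mutants, where its difference from the 8-week mutants was 0.35 ± 0.19 (adjusted p = 0.137, limma).

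Tac1 and Npy lay in the same direction without passing. Tac1 was at 13.84 to 17.89 TPM in the 8-week controls, below both 3-week controls, with a difference of 0.40 ± 0.17 (adjusted p = 0.0696, limma). It passed under size factors (0.51, adjusted p = 0.0288) and quantile normalization (0.58, adjusted p = 0.0151). Npy was at 106.76 to 236.7 TPM in the 8-week controls and 236.25 and 285.51 TPM in P209L Control (0.52 ± 0.27, adjusted p = 0.152, limma), and passed under size factors (0.63, adjusted p = 0.0368). In total the wild-type groups did not overlap for 3 of the 10 genes (Cort, Tac1 and Tac2), against 38.2% of all genes. Without KO Control 1, Cck passed as lower at 3 weeks (-0.35, adjusted p = 0.013, limma), whereas with that mouse its difference was -0.23 (adjusted p = 0.29).

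In the mutants Cort and Tac1 were higher in P209L than in the 8-week mutants, at 279% and 236% of their means, and so was Nts, at 280%. Penk and Cck were lower, at 70.6% and 76.9%. With 3 higher and 2 lower, 5 of the 10 passed the adjusted threshold, against 45.9% of all genes (13.9% higher and 32.1% lower). The median difference was 0.17 for the 10 genes and -0.16 for all genes, of whose calls 30.2% were higher (47.9% under size factors and 50.2% under quantile normalization). In this comparison the P209L allele adds to the difference in line and age, and the 3 cannot be told apart.

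Cort was at 17.63 to 26.15 TPM in the 6 mutants at 8 weeks and at 40.2 TPM or more in the P209L mice, a difference of 1.39 ± 0.17 (adjusted p = 2.77e-05, limma). Tac1 was at 13.06 to 19.18 TPM in the 8-week mutants and at 29.94 TPM or more in P209L (1.18 ± 0.14, adjusted p = 2.76e-05, limma). Neither gene overlapped between these groups, as was the case for 40.2% of all genes, and both passed under all 26 alternatives.

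Nts was at 0.44 to 2.99 TPM in the 8-week mutants and at 2.46, 5.54 and 1.32 TPM in P209L. The groups overlapped, and the difference of 0.93 ± 0.34 (adjusted p = 0.0344, limma) fell to 0.53 (adjusted p = 0.247, limma) without P209L 2. That mouse had the highest sum of hippocampal markers, whose part in the Nts values was not tested. In all, Nts passed in 17 of the 25 alternatives that could test it.

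Penk was at 43.7 to 74.46 TPM in the 8-week mutants and at 36.93, 36.18 and 50.89 TPM in P209L (-0.49 ± 0.16, adjusted p = 0.0207, limma). The highest P209L mouse lay within the 8-week range. The call was lost without P209L 1 (adjusted p = 0.0929) or P209L 2 (adjusted p = 0.105). In the wild-type mice Penk differed by -0.22 ± 0.19 (adjusted p = 0.371, limma).

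Cck was at 584.61 to 831.05 TPM in the 8-week mutants and at 627.49, 521.79 and 587.13 TPM in P209L (-0.37 ± 0.14, adjusted p = 0.0451, limma). It passed in 11 of 26 alternatives. Under size factors, which took out the median shift of all genes, its difference was -0.21 (adjusted p = 0.13).

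Crh, Pdyn, Npy and Adcyap1 did not pass in this comparison, with differences of -0.26, 0.12, 0.17 and 0.18. For Crh the interval was -0.66 to 0.13 and for Pdyn -0.36 to 0.60. Sst differed by -0.06 ± 0.16 between the mutants of both ages (adjusted p = 0.759, limma) and by 0.12 ± 0.18 between the controls (adjusted p = 0.626). Vip was higher in P209L than in the 8-week mutants (0.49 ± 0.12, adjusted p = 0.00386, limma), and in the controls it differed by 0.23 ± 0.14 (adjusted p = 0.213).

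**Figure D3:**
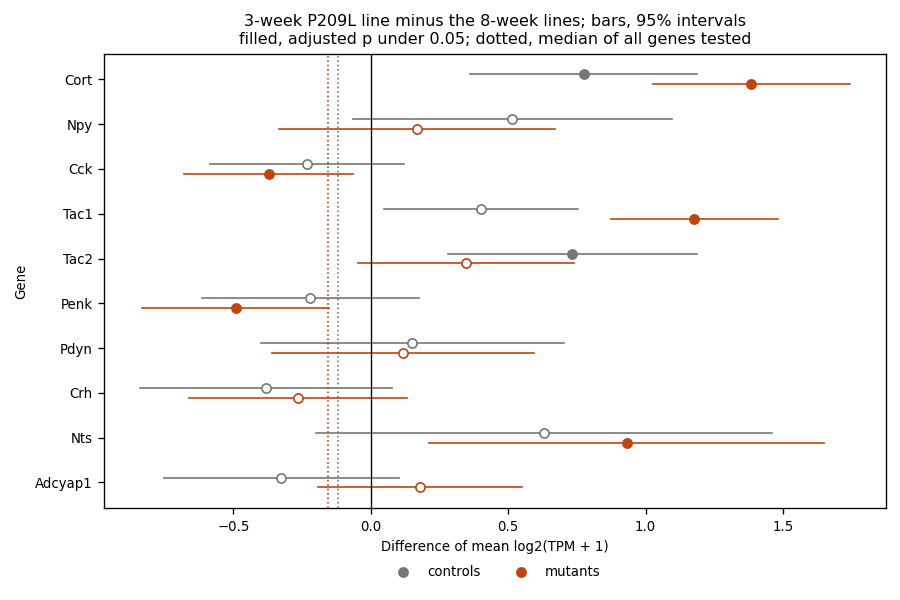
Difference in mean log2(TPM + 1) between the 3-week P209L line and the 8-week lines for the 10 genes, in controls (grey) and mutants (red), with 95% intervals; filled points passed an adjusted p of 0.05 and dotted lines give the median of all genes tested (-0.12 and -0.16). Cort passed in both, Tac2 in controls, and Tac1, Nts, Penk and Cck in mutants.

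The other precursors, the receptors and the processing enzymes of the same peptides were described over lists. Of 14 other neuropeptide genes 10 were tested, and 4 were higher and 0 lower in the 3-week controls, with a median difference of 0.25. The shares were 40% higher and 0% lower, against 11.3% and 24.8% of all genes. In the mutants 5 were higher and 1 was lower, with a median of 0.37. There 50% were higher and 10% lower, against 13.9% and 32.1% of all genes. With no filter on low values all 14 were tested, with 4 higher and 0 lower in controls and 6 higher and 1 lower in mutants. Grp, the gastrin-releasing peptide gene, was higher in both (0.82 ± 0.20 in controls, adjusted p = 0.00456; 1.50 ± 0.17 in mutants, adjusted p = 1.65e-05, limma). So was Trh, the thyrotropin-releasing hormone gene, whose level was low (1.45 TPM in P209L Control against 0.688 TPM in the 8-week controls). That 8-week mean is under the filter of 1 TPM, so Trh passed the filter only through groups where it was higher. Its calls are therefore not independent of that filter. The 4 calls in controls rest on only 2 mice at 3 weeks. With a single control left, the list median was 0.43 without P209L Control 1 and 0.24 without P209L Control 2. Grp differed by 0.62 without P209L Control 1. Cartpt (0.79) and Nppc (0.56) were also higher in the 3-week controls, the Nppc call being lost without either 3-week control (adjusted p = 0.113 and 0.0643, limma), and Edn3 was lower in the P209L mutants (-0.72).

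Among receptors for the 10 peptides the calls were toward lower levels, as they mostly were over all genes. Of 24 receptor genes 17 were tested, and 5 were lower and 0 higher in the 3-week controls, with a median of -0.27. The 5 are 29.4% of the receptors tested, near the 24.8% of all genes that were lower. In the mutants 9 were lower and 0 higher, or 52.9% lower against 32.1% of all genes, with a median of -0.42. Oprd1, the delta opioid receptor that binds enkephalin, was at 3.595 TPM in P209L Control against 12.43 TPM in the 8-week controls (-1.52 ± 0.20, adjusted p = 9.07e-05, limma) and at 4.337 against 12.19 TPM in the mutants (-1.31 ± 0.17, adjusted p = 5.26e-05). Sstr4 and Sstr2, receptors that bind somatostatin and cortistatin, were at 38.7% and 47.4% of their 8-week means in controls, and Sstr2 no longer passed without P209L Control 2 (-0.85, adjusted p = 0.113, limma). In the mutants Ntsr2, a neurotensin receptor, and Adcyap1r1, the PACAP receptor, were at 62.9% and 65.7%. Under size factors and under quantile normalization 1 receptor gene passed as higher in each comparison, with 6 lower in controls and 9 and 7 lower in mutants. Without KO Control 1 the count lower in controls was 8, while over all genes the count lower rose from 4039 to 6089. With a single 3-week control left, the receptor median was -0.24 without P209L Control 1 and -0.30 without P209L Control 2.

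Peptide processing and dense-core granule genes were 18, all tested. In controls 1 was higher and 6 were lower at 3 weeks (median -0.38), and in mutants 1 was higher and 7 were lower (median -0.42). The lower shares were 33.3% and 38.9%, against 24.8% and 32.1% of all genes. Pcsk1, a prohormone convertase, was at 37.2% of its 8-week mean in P209L Control (-1.36 ± 0.26, adjusted p = 0.00128, limma). Pcsk1n, its inhibitor proSAAS, was lower in controls (-0.69) and mutants (-0.92), as was Rph3a, a vesicle protein (-0.96 and -1.29), whose call in controls was lost without P209L Control 1 (adjusted p = 0.0735, limma). Scg5, the chaperone of the convertase Pcsk2, was higher in both (0.46 and 0.66). Of 11 genes for peptide degradation and binding, 1 was higher and 2 were lower in controls and 0 were higher and 6 lower in mutants. Ece1, an endothelin-converting enzyme that cleaves several neuropeptides, was lower in both (-1.34 and -0.97). Without KO Control 1, 13 processing genes were lower in each comparison. Over all genes the count lower then rose from 4039 to 6089 in controls and from 5213 to 6358 in mutants. With a single 3-week control left, the processing median was -0.37 without P209L Control 1 and -0.33 without P209L Control 2. The degradation genes lower were 18.2% in controls and 54.5% in mutants, and the count in controls was 4 without KO Control 1. Their median in controls was -0.26, against -0.09 without P209L Control 1 and -0.22 without P209L Control 2. In mutants the degradation genes called were 2 without P209L 1 and 3 without P209L 2.

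**Figure D4:**
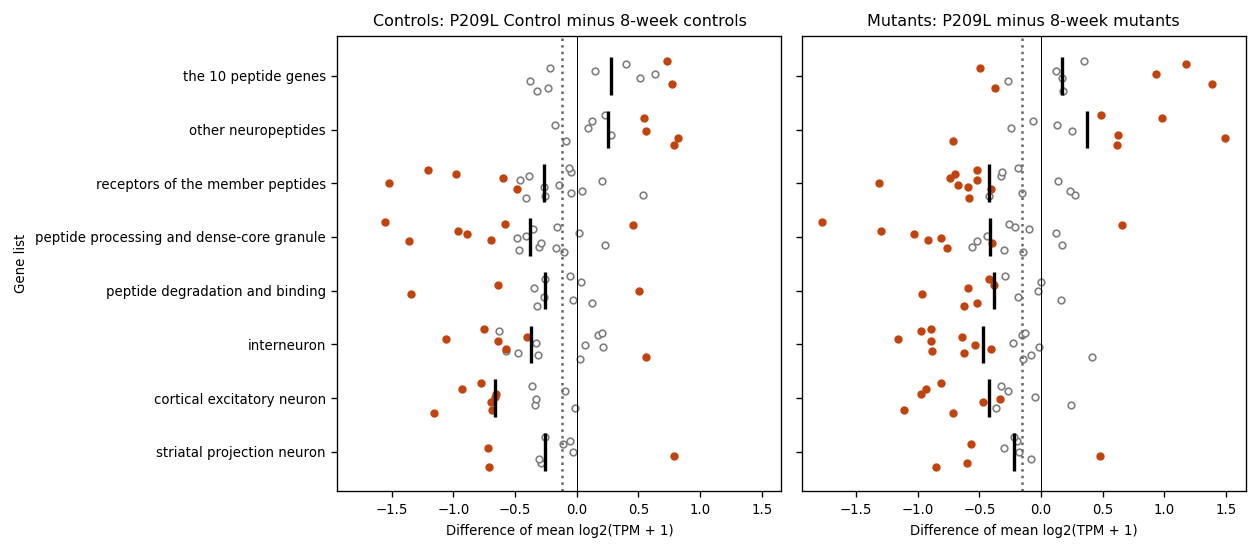
Difference in mean log2(TPM + 1) between the 3-week P209L line and the 8-week lines for each tested gene of 8 lists, in controls (left) and mutants (right); red points passed an adjusted p of 0.05, black bars are list medians and the dotted line is the median of all genes. The peptide genes have medians of 0.28 and 0.17, and the receptor genes -0.27 and -0.42.

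Markers of the cells that make these peptides were counted in the same comparisons, in which 24.8% of all genes were lower in controls and 32.1% in mutants. Of 16 interneuron markers, 1 was higher and 5 were lower in the 3-week controls, and 0 were higher and 9 lower in the mutants, with medians of -0.37 and -0.47. The lower shares were 31.2% and 56.2%. In controls 10 were lower and 1 higher without KO Control 1, while over all genes the count lower rose from 4039 to 6089. With a single 3-week control left, the median was -0.35 without P209L Control 1 and -0.39 without P209L Control 2. Their summed level in single mice was 565.7 to 787.8 TPM at 3 weeks and 600.6 to 1134 TPM at 8 weeks. The 600.6 TPM was that of KO Control 1, and the other 8-week mice were at 839.9 TPM or more. Of 12 excitatory neuron markers 7 were lower (58.3%) and 0 higher in each comparison. Without KO Control 1, 10 were lower in controls and 8 in mutants. Their median in controls was -0.66, against -0.63 without P209L Control 1 and -0.57 without P209L Control 2. Striatal projection neurons are rich in Penk, Pdyn and Tac1, and 9 of their 12 markers were tested. In controls 1 was higher and 2 were lower, and in mutants 1 was higher and 3 were lower (22.2% and 33.3% lower). Their median in controls was -0.26, against -0.10 without P209L Control 1 and -0.28 without P209L Control 2. The summed level was 132.4 to 170.8 TPM at 3 weeks and 137.4 to 219.5 TPM at 8 weeks. The 137.4 TPM was that of KO Control 1, and the other 8-week mice were at 152.8 TPM or more. Of 10 immediate-early genes, which mark neuronal activity, 1 was higher and 3 were lower in controls. In mutants 0 were higher and 6 lower, with medians of -0.50 in controls and -0.92 in mutants. The part of these values in the precursor levels was not tested. In KO, R206W and P209L against their littermates no gene of any of these lists passed the adjusted threshold.

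Within groups the precursors varied together from mouse to mouse. After each group mean was subtracted from log2(TPM + 1), 34 of the 36 pairs that do not include Nts had a Pearson r above 0, with a median of 0.575. Without KO Control 1 the count was 31 and the median 0.42. The highest values were those of Pdyn with Npy (0.878; 0.792 without that mouse) and Tac2 with Penk (0.846; 0.806). Nts went against the others, with 0 of 9 pairs above 0 and an r of -0.882 with Npy (-0.929 without KO Control 1). Tac1 stood apart, its r running from -0.157 with Crh to 0.428 with Cort. These are descriptions over 17 mice whose genes share a library and its total, and no p is attached.

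**Figure D5:**
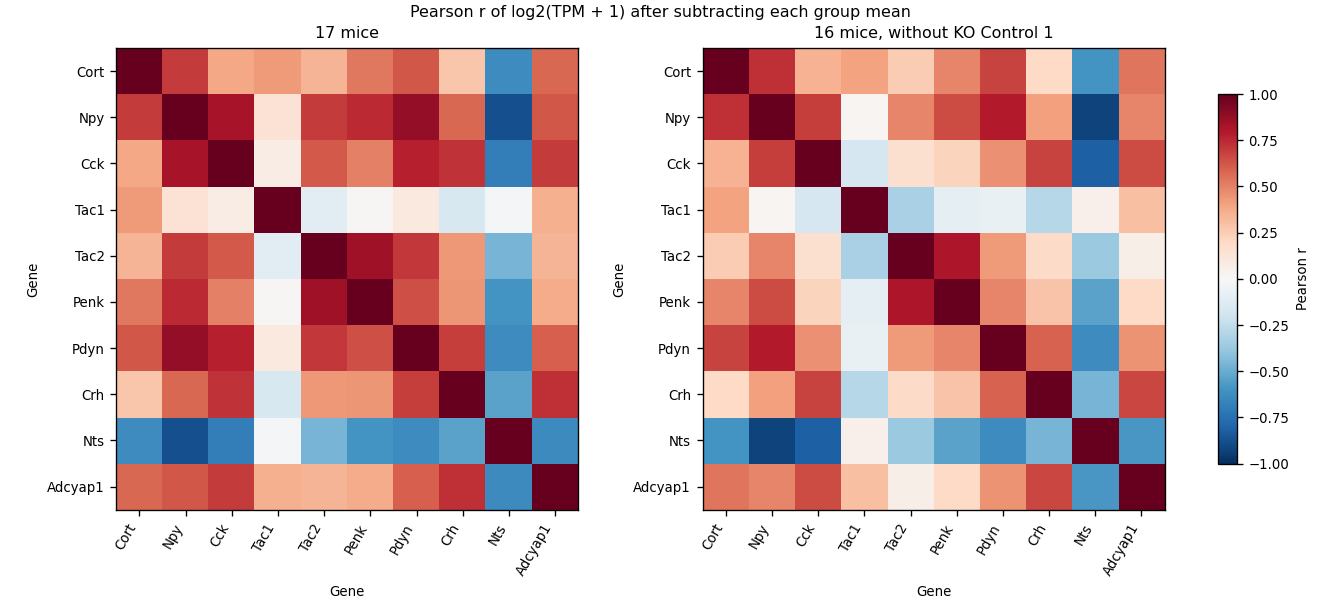
Pearson r between the 10 genes over mice after each group mean was subtracted, for 17 mice (left) and for 16 without KO Control 1 (right); the colour scale runs from -1 to 1. The Nts row is mostly blue (r from -0.882 to -0.0167 on the left), and the Tac1 row is pale.

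By the same measure genes most like each precursor, outside the 10, were the following. Each was picked for the highest r among all genes tested, so part of its height comes from the picking. No background r was computed. For Cort they were Neu2 (r = 0.884), Lmcd1 and C130074G19Rik. Npy was most like Them6 (0.982) and Cabp1, and Cck was most like Erp44 (0.972), Pou2f2 and Nktr. Tac1 had Gm45769 (0.895), Gm9157 and Uchl5, and Tac2 had Fzd1 (0.959), Rhof and Nyap1. Among the opioid precursors Penk was nearest to Adgre5 (0.932), Mical1 and Klf3, and Pdyn to Ctnnbl1 (0.987), Hnrnpf and Scg3, a granule protein. Crh was nearest to Ing1 (0.965), Lrrc32 and Insyn2a, Nts to Efcab1 (0.946), D630023F18Rik and Trhr, and Adcyap1 to Rel (0.909), Inhba and Dnajc21. Without KO Control 1 the values of these genes ran from 0.856 to 0.975.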

How the data were processed

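Total RNA from bulk cortex of 17 mice was made into stranded total RNA libraries. The authors deposited TPM values by gene symbol, with 1 column for each mouse. The submitters' processing notes name mm10, Trim Galore, STAR 2.7.1a, GATK 4.0.4.0 and RSEM, with no role or order, and whether counting used strand is not given in the sources used here. TPM carries no read depth, so depth is unknown and no counting interval is given. Repeated symbols were summed (120 of 55573 rows), leaving 55453 symbols. Genes with a mean of at least 1 TPM over the 17 mice were tested (16265). The 6 group means were modelled on log2(TPM + 1) with limma 3.58.1 (eBayes with trend) in R 4.3.3. P-values were two-sided and adjusted by Benjamini-Hochberg within each comparison, with a threshold of 0.05. The script was tested on simulated data. Age comparisons set the P209L line against the mean of both 8-week groups. The members, gene lists and rules were chosen with earlier results of these data known. The 10 precursors, Sst and Vip were always named. From the other peptide, receptor, processing and degradation lists, genes were named among the 3 with the smallest p past the threshold in a comparison. Most cell marker and immediate-early lists are given as counts or sums, without naming each called gene. The separate mice are the replicates. Alternatives were a pseudocount of 0.1, no filter or a mean of at least 5 TPM, quantile normalization, median-of-ratios size factors, mitochondrial genes left out, fits of the compared groups alone, a replicate block, sample weights and leaving out each mouse. A gene among those most like Npy is not reported here. Summaries were made in Python with pandas.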

Additional observations from a re-analysis of the deposited data

How the results depend on the processing

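Cort and Tac1 in P209L against the 8-week mutants passed under all 26 alternatives, and no alternative brought any of the 10 genes past the threshold in R206W, in P209L, between the 8-week controls or between the mutant effects. In KO the count was 1 under sample weights (Pdyn). In the 3-week controls it was 2, and became 4 under size factors and 5 under sample weights. In the mutants it was 5, and became 3 without a filter on low values. Leaving out each mouse in turn gave counts of 0 to 3 in controls and 2 to 5 in mutants. Nts could not be fitted at a mean of at least 5 TPM. The deviations of same-numbered mice of mutant and control groups had an r from -0.113 to 0.331. With 2 or 3 mice in a group this cannot show whether the numbers pair them. The replicate block gave 3 calls in controls and 6 in mutants, and 0 elsewhere. Of 1295 values of the 10 genes under these alternatives, 37 changed sign, none of them a called value, and the cause was not tested.

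With Sst and Vip added, the changes of sign in KO that did not come from leaving out a mouse were Tac1 under size factors (-0.055), quantile normalization (-0.047) and sample weights (-0.098), and Cck under sample weights (-0.086). In R206W it was Tac2 under sample weights (-0.047). In P209L they were Penk under the replicate block (-0.085), Crh under sample weights (-0.067), and Vip under quantile normalization (-0.029) and sample weights (-0.016). Sst in P209L against the 8-week mutants was 0.10 under size factors.

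With each mouse left out, the KO differences ranged from -0.10 to 0.27 for Cck, -0.071 to 0.14 for Tac1, -0.50 to 0.0855 for Pdyn, -0.23 to 0.061 for Crh, -0.15 to 0.58 for Nts, -0.26 to 0.048 for Adcyap1 and -0.17 to 0.036 for Vip. The R206W differences ranged from -0.081 to 0.14 for Tac1, -0.093 to 0.14 for Tac2, -0.32 to 0.046 for Crh and -0.052 to 0.16 for Adcyap1. The P209L differences ranged from -0.093 to 0.040 for Cck, -0.085 to 0.16 for Penk, -0.079 to 0.17 for Crh, -0.35 to 0.13 for Npy, -0.075 to 0.67 for Nts, -0.0037 to 0.18 for Sst and -0.20 to 0.24 for Vip. In the 3-week controls Pdyn ranged from -0.028 to 0.27. In P209L against the 8-week mutants the ranges were -0.11 to 0.23 for Pdyn, -0.11 to 0.37 for Npy and -0.14 to 0.013 for Sst. TPM carries no depth, so the precision of low genes such as Nts and Crh cannot be given.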
